A study of Homo sapiens with 18 samples.

Results

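The human melanoma lines CHL1 and A375 are both established in culture. The question addressed here is which genes and gene groups responded to the CDK4/6 inhibitor (CDK4/6i) palbociclib more in one line than in the other. The comparison used 8 of the 18 libraries of the series, chosen by their labels: 2 DMSO control and 2 CDK4/6i libraries of each line. CDK4/6i cells were treated with 1 μM palbociclib for 72 hours. Per the study's methods, CHL1 is wild type for BRAF and NRAS with mutant p53 and was grown in DMEM, while A375 carries mutant BRAF and wild-type p53 and was grown in RPMI-1640. Each line is a single model of its genotype. The CHL1 libraries and the A375 libraries carry the names of different library sets, so differences in level between the lines cannot be told apart from set, medium and depth, whereas each line's response was measured within its own set. The labels do not say that replicates were separate cultures, so p-values measure only the spread between these samples.

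Poly-A RNA was sequenced, and read counts per gene were compared as CPM (counts per 1000000 reads of a library). Total counts ranged from 27588432 to 30013952 in the CHL1 libraries and from 18368608 to 19598242 in the A375 libraries. A panel of melanocyte lineage markers, of which 7 genes were measured, summed to 253 to 334 CPM in CHL1 and 143 to 165 CPM in A375, while the keratinocyte, fibroblast, endothelial and leukocyte panels each summed to between 1.17 and 29.0 CPM. DCT, a pigment enzyme, had no read in either A375 control library.

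Cells pass from G1 into S phase when CDK4 and CDK6, bound to D-type cyclins, phosphorylate RB1 and release the E2F transcription factors. E2F factors drive genes of DNA replication, and a later wave of genes serves mitosis. When CDK4/6 is blocked, proliferating cells with RB1 stop in G1, and both waves fall. p53 works beside this pathway by inducing CDKN1A, an inhibitor of cyclin-dependent kinases. In bulk RNA, fewer cells in a cycle phase and less RNA per cell cannot be told apart.

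The difference between the lines was tested as an interaction: the log2 fold change of CDK4/6i against control in CHL1 minus that in A375. A positive line difference means that the gene rose more, or fell less, in CHL1. At a Benjamini-Hochberg adjusted p below 0.05, 133 of 20705 genes differed (0.642% of genes tested). Of these, 50 had a positive line difference (0.241%) and 83 a negative one (0.401%). CHL1 alone showed 953 DEGs (449 up-regulated/504 down-regulated), or 4.6% of genes, with 2.17% up and 2.43% down. A375 showed 3123 DEGs (1709 up-regulated/1414 down-regulated), or 15.1% of genes, with 8.25% up and 6.83% down. Over the 15461 genes that averaged 1 CPM or more, log2 fold changes had a standard deviation of 0.57 in CHL1 and 0.71 in A375. Their Pearson correlation between the lines was 0.383. The lines shared 546 DEGs, which are 57.3% of those of CHL1 and 17.5% of those of A375. Of the shared DEGs, 533 moved the same way (203 up and 330 down) and 13 moved in opposite directions.

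The count of line differences depended on which libraries set the estimate of spread. The counts above come from a fit of all 18 libraries of the series, which share 1 estimate of spread. A fit of only these 8 libraries called 1797 genes (8.68%), with 849 positive (4.1%) and 948 negative (4.58%), and it kept all 133 genes in the same direction. Leaving out any 1 of the 8 libraries left between 30 and 46 line differences in the 18-library fit. For this reason, counts of list members are given below for both fits where a list is described. Some lists are also given with DESeq2, which called 358 of the 15888 genes it gave an adjusted p (2.25%), and at an unadjusted p below 0.05 in the 18-library edgeR fit, which 2073 of all genes passed (10%). After correction for the GC content of transcripts, on the 13559 genes of at least 1 CPM with a GC value, 524 genes differed (283 positive and 241 negative), against 147 (69 positive and 78 negative) without the correction. The share of positive line differences was 37.6% over all genes, 46.9% over the genes with a GC value without the correction and 54.0% over the same genes with it.

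Most line differences were changes in A375 that did not pass the threshold in CHL1. Of the 133 genes, 91 were DEGs in A375 and not in CHL1, and 24 were DEGs in CHL1 and not in A375. A further 12 were DEGs in both lines in opposite directions, and 6 fell in both lines and fell further in A375. No gene with a line difference rose in both lines as a DEG. The A375-only genes comprised 64 that rose and 27 that fell. Of the 64, 52 had a negative log2 fold change in CHL1, and of the 27, 13 had a positive one.

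**Figure D1:**
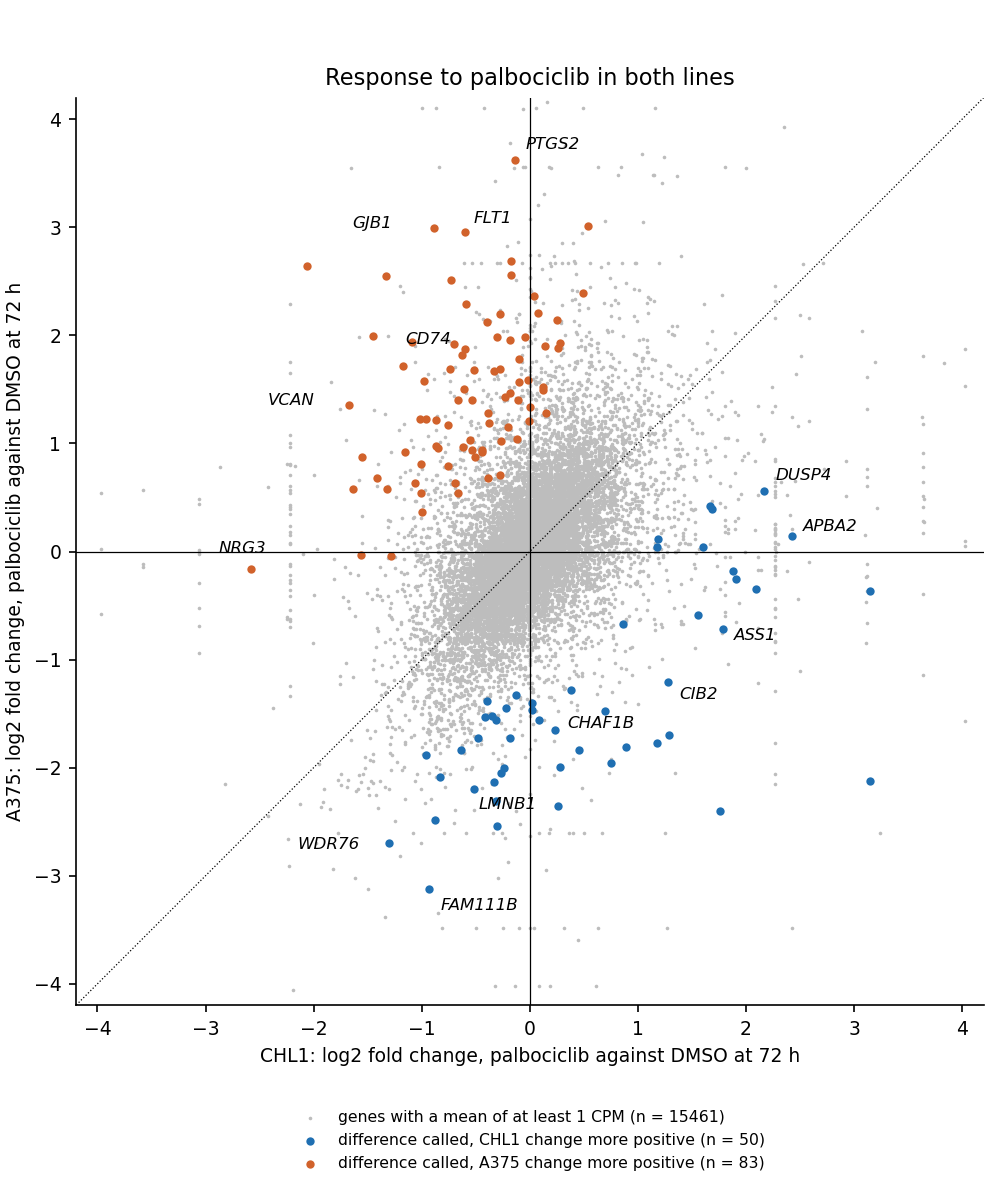
Log2 fold change of CDK4/6i against DMSO at 72 hours in CHL1 (x axis) and A375 (y axis), 1 point per gene, with a dotted line of equal change. Grey points are the 15461 genes that averaged 1 CPM or more, and the 50 blue and 83 orange points are genes whose line difference passed the test. Orange points lie mostly above 0 in A375 and blue points mostly below 0 in A375. Points beyond 4.2 on either axis are not drawn, among them 1 gene with a negative line difference.

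Most genes of DNA replication fell in A375 and fewer fell in CHL1. Of 53 measured E2F targets and replication genes, 49 fell and 1 rose in A375, while 22 fell and none rose in CHL1. The median log2 fold change of the list was -1.28 in A375 and -0.63 in CHL1, against medians of 0.06 and 0.00 over all genes. The line difference was positive for 51 of the 53 genes, with a median of 0.66, which was between 0.65 and 0.73 under other scalings and GC correction. It passed the test for 5 genes in the 18-library fit and for 35 in the 8-library fit, where 1 gene differed the other way. With any 1 library left out, between 0 and 2 members were called. The 5 genes were POLE2, CHAF1B, DTL, BRCA2 and MCM6.

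The sequences just upstream of the start sites show the E2F words in members of this list. The promoters were taken from RefSeq (GRCh38.p14), as the 250 bases before each start site, for 34 of the 53 genes. E2F words were TTTCCCGC, TTTCGCGC, TTTGCCGC or TTTGGCGC on either strand. They occurred in 13 of the 34 promoters (38.2%) and in 594 of all 22114 promoters (2.69%). The last 170 bases before the start site are shown for the 3 members with the smallest p of the line difference that hold a word in that stretch, with the words in capitals. They are DTL (chr1:212035578-212035747, plus strand), MCM6 (chr2:135876444-135876613, minus strand) and E2F2 (chr1:23531234-23531403, minus strand).
DTL: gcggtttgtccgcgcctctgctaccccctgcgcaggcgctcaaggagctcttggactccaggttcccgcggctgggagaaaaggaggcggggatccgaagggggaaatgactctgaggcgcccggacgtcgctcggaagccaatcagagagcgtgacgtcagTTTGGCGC
MCM6: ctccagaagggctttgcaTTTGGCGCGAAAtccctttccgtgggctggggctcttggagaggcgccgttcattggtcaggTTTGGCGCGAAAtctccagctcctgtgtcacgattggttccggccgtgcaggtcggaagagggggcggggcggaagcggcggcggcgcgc
E2F2: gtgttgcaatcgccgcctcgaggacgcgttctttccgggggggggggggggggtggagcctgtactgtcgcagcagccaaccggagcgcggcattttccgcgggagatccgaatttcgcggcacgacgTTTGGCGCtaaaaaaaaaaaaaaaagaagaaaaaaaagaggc
In MCM6, 4 matches overlap in pairs, so that each capital run holds a word on both strands. A match describes the sequence and does not show that a factor binds there.

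POLE2, a subunit of DNA polymerase epsilon, was at 16.3 and 16.1 CPM in the CHL1 controls and at 7.95 and 9.64 CPM with CDK4/6i. In A375 it was at 23.3 and 25.2 CPM in the controls and at 3.75 and 4.91 CPM with CDK4/6i. The fall was deeper in A375 (log2 fold change -2.48, against -0.88 in CHL1). The line difference of POLE2 was 1.60 ± 0.28 SE (adjusted p = 0.0112). CHAF1B, a subunit of the chromatin assembly factor that loads histones behind the replication fork, went from 125 and 122 CPM to 142 and 148 CPM in CHL1 and so was not lower there. In A375 CHAF1B went from 22.9 and 24.8 CPM to 7.71 and 7.51 CPM. The difference between the lines was 1.88 ± 0.33 SE (adjusted p = 0.0112).

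DTL, the substrate receptor that directs replication-licensing proteins to degradation, went from 160 and 144 to 107 and 122 CPM in CHL1 and from 132 and 134 to 44.6 and 47.3 CPM in A375. MCM6, a subunit of the replicative helicase, went from 203 and 176 to 151 and 146 CPM in CHL1 and from 116 and 137 to 40.6 and 47.8 CPM in A375. For both genes the A375 CDK4/6i libraries were the lowest of the 8. BRCA2, which acts in homologous recombination, went from 56.1 and 48.3 to 44.5 and 45.3 CPM in CHL1 and from 65.2 and 70.2 to 24.9 and 24.8 CPM in A375. The line differences were 1.12 ± 0.22 SE for DTL (adjusted p = 0.0248), 1.16 ± 0.25 SE for MCM6 (adjusted p = 0.0404) and 1.23 ± 0.25 SE for BRCA2 (adjusted p = 0.0262). None of the 3 genes passed the test of CHL1 itself, where their log2 fold changes were -0.41, -0.35 and -0.22.

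Other members did not pass the test of the line difference in the 18-library fit. E2F2, an activator of the E2F family, went from 62.7 and 55.2 to 34.0 and 34.6 CPM in CHL1 and from 23.4 and 25 to 4.60 and 6.06 CPM in A375 (line difference 1.40 ± 0.35 SE, adjusted p = 0.0807). CDC45, part of the helicase at the fork, had log2 fold changes of -0.76 in CHL1 and -1.80 in A375 (adjusted p of the difference 0.0632). Both passed in the 8-library fit, with adjusted p of 0.000107 and 0.000268. PCNA, the sliding clamp of the replicative polymerases, fell by a log2 of 1.01 in CHL1 and 1.10 in A375, a line difference of 0.09 ± 0.32 SE. CCNE1, which encodes cyclin E1, was the member that rose in A375 (log2 fold change 0.69). E2F7, a repressor of the family, was the member with the opposite call in the 8-library fit.

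Mitotic genes followed the same order of the lines. Of 47 measured genes, 45 fell in A375 and 27 in CHL1, none rose in either, and the medians were -1.36 and -0.74. The line difference was positive for 46 of 47 genes with a median of 0.59. It passed for 0 genes in the 18-library fit of edgeR, for 4 genes with DESeq2 and for 28 genes in the 8-library fit. At an unadjusted p below 0.05 in edgeR it passed for 27 of 47 genes, against 10% of all genes. The smallest p belonged to PBK, a mitotic kinase, which went from 84.7 and 71.5 to 50.8 and 51.3 CPM in CHL1 and from 30.5 and 35.9 to 10.6 and 10.8 CPM in A375 (line difference 1.02 ± 0.26 SE, adjusted p = 0.0807). NUSAP1, a spindle protein, had a line difference of 0.91 ± 0.25 SE (adjusted p = 0.129). CCNB1, the cyclin of the mitotic kinase, fell by a log2 of 0.91 in CHL1 and 1.07 in A375 and had a line difference of 0.16 ± 0.27 SE.

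The cell cycle homology word TTTGAA, which marks many G2 and mitosis promoters, was present on either strand in 19 of 33 matched mitosis promoters (57.6%), in 1 of 34 promoters of the E2F list (2.94%) and in 14.0% of all promoters. Of the lists described below, it was in 5 of 12 MHC class II promoters (41.7%) and 0 of 18 promoters of p53 targets. Promoters of KIF4A (chrX:70289934-70290103, plus strand) and CENPA (chr2:26785886-26786055, plus strand), chosen by the same rule, are shown over 170 bases with the word in capitals.
KIF4A: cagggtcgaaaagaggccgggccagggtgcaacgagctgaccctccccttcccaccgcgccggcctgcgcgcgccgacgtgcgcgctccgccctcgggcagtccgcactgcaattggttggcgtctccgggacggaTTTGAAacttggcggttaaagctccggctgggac
CENPA: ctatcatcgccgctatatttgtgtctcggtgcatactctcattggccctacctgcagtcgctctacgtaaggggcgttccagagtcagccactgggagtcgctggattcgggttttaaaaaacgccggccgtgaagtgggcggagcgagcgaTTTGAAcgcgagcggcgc
KIF4A is a chromosome-associated kinesin whose line difference was 0.68 ± 0.20 SE (adjusted p = 0.162 in the 18-library fit and 0.00387 in the 8-library fit). CENPA is the histone variant that defines the centromere.

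**Figure D2:**
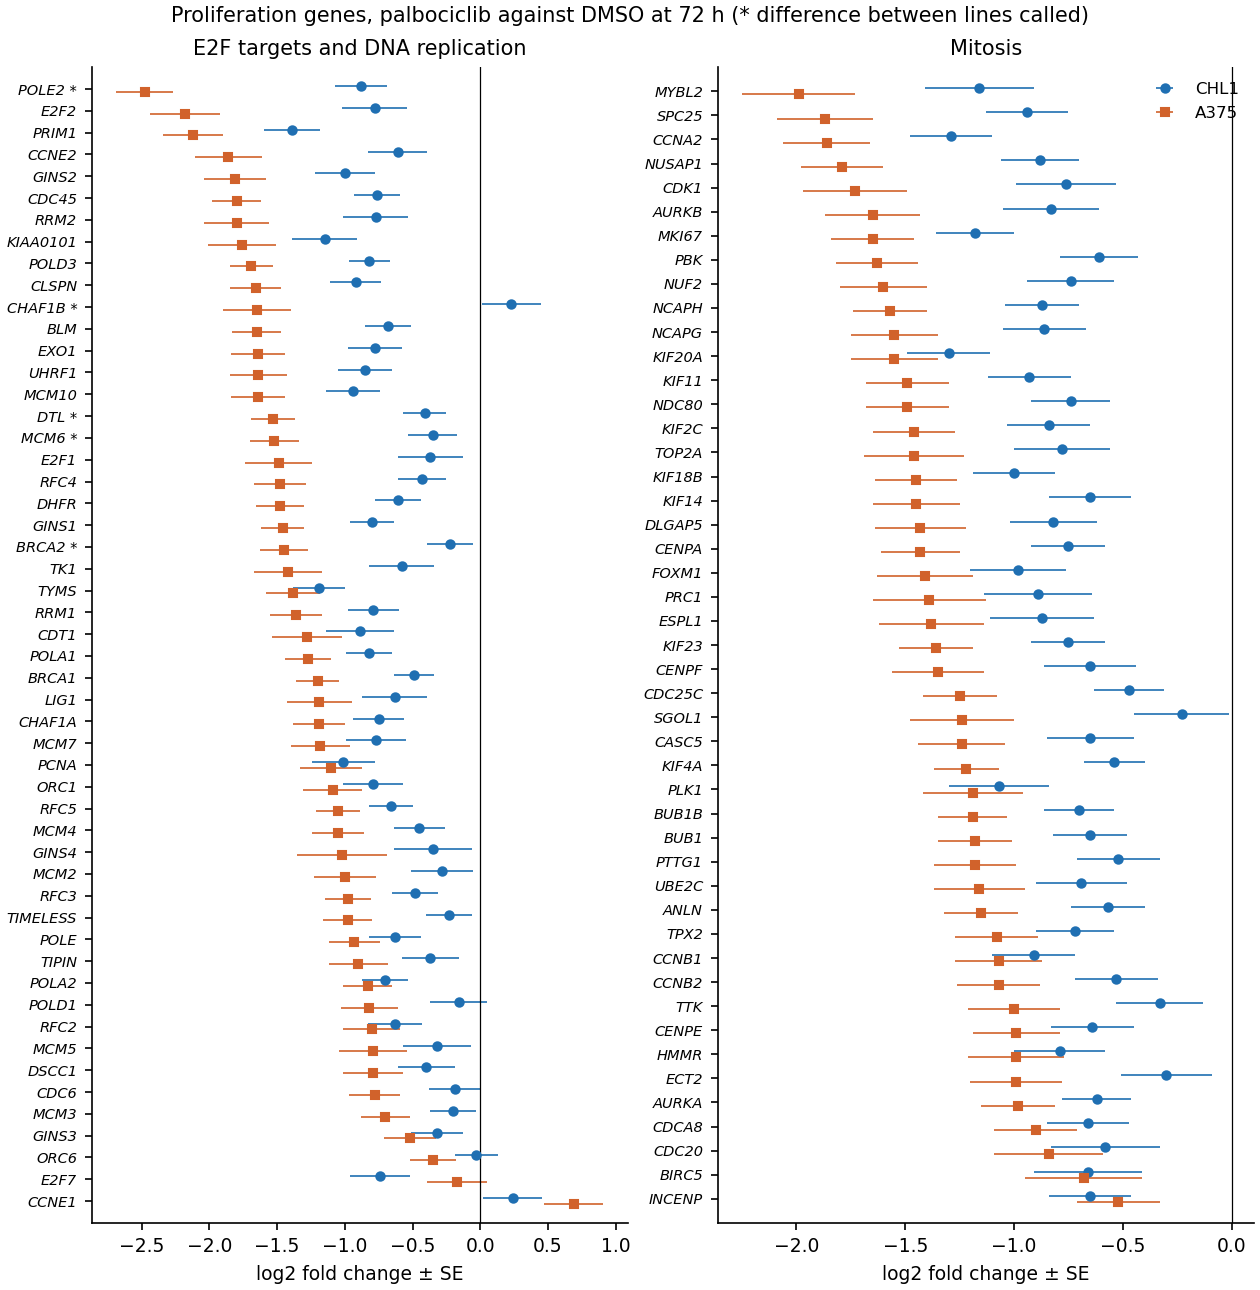
Log2 fold change of CDK4/6i against DMSO with its standard error in CHL1 (blue circles) and A375 (orange squares) for 52 of the 53 genes of the E2F and replication list (left) and 47 mitosis genes (right), ordered by the change in A375. Stars mark the 5 genes whose line difference passed the test. The A375 value lies to the left of the CHL1 value for 50 and 46 of the genes drawn.

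In these poly-A libraries, counts of replication-dependent histone genes showed the deepest fall of the lists in both lines. Their line difference was smaller relative to that fall. Of 63 genes, 44 fell in CHL1 and 56 in A375, and none rose. Over the 58 genes with no group at the floor, defined as at most 3 counts in each library of a group, the medians were -1.48 and -2.04. The line difference was positive for 49 of these 58 genes, with a median of 0.40. In the 18-library fit the line difference passed for 0 genes with edgeR and 0 with DESeq2. At an unadjusted p below 0.05 it passed for 7 of 63 genes, a share near the 10% of all genes. In the 8-library fit 10 positive and 1 negative passed (17.5% of the list, against 8.68% of all genes). Some of these genes are close in sequence to others of the list, so their counts are uncertain. Poly-A selection may not capture all RNA of these genes, so the values describe only the part captured.

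Across the whole table, 6 genes with a line difference fell in both lines as DEGs and fell further in A375: FAM111B, WDR76, POLE2, BARD1, MND1 and EZH2. FAM111B, a serine protease, went from 105 and 87.6 to 47.9 and 53.4 CPM in CHL1 and from 34.8 and 40.0 to 3.96 and 4.65 CPM in A375 (line difference 2.19 ± 0.35 SE, adjusted p = 0.0057). WDR76 went from 55.6 and 47.4 to 19.2 and 22.5 CPM in CHL1 and from 46.8 and 49.9 to 7.08 and 7.76 CPM in A375 (line difference 1.40 ± 0.27 SE, adjusted p = 0.0193). BARD1 encodes the partner of BRCA1, MND1 a meiotic recombination factor and EZH2 the methyltransferase of a Polycomb complex. Their log2 fold changes were -0.83, -0.64 and -0.96 in CHL1 and -2.09, -1.84 and -1.88 in A375, with line differences of 1.26, 1.20 and 0.92. In each of the 6 genes every CDK4/6i library lay below both controls of its line. This adds no separate support, because the genes were chosen as DEGs that fell in both lines.

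LMNB1, which encodes lamin B1 of the nuclear envelope and whose loss is a known mark of senescent cells, went from 381 and 376 to 261 and 268 CPM in CHL1 and from 229 and 278 to 52.1 and 58.0 CPM in A375. Its line difference was 1.68 ± 0.28 SE (adjusted p = 0.00697). It was the member with a line difference in a list of 27 antiproliferation and senescence genes, in which 11 rose and 3 fell in A375 and 2 rose and 1 fell in CHL1. In the 8-library fit, 2 members differed positively and 7 negatively (33.3% of the list, against 8.68% of all genes).

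Targets of p53 rose in A375, and few of them changed in CHL1. The p53 is wild type in A375 and mutant in CHL1. The lines also differ in BRAF, medium and library set, so the part of p53 cannot be told apart. Of 39 measured targets, 19 rose and none fell in A375, and 2 rose and none fell in CHL1. Over all genes, 8.25% rose in A375 and 2.17% in CHL1. Over the 38 genes with no group at the floor, the median log2 fold change was 0.61 in A375 and 0.10 in CHL1, and the line difference was negative for 35 genes with a median of -0.50. In the 18-library fit 1 gene passed, PTCHD4 (0 genes with limma voom and 2 with DESeq2), and in the 8-library fit 15 passed, all negative. The control level was higher in A375 than in CHL1 for 30 of the 39 genes.

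CDKN1A, the p53 target that encodes the kinase inhibitor p21, was at 19.9 and 18.5 CPM in the CHL1 controls and at 25.3 and 22.7 CPM with CDK4/6i. In A375 it was at 125 and 131 CPM in the controls and at 363 and 400 CPM with CDK4/6i. It rose in A375 (log2 fold change 1.58, adjusted p = 0.00138), its change in CHL1 was 0.32 (adjusted p = 0.623), and the line difference of -1.26 ± 0.41 SE passed the 8-library fit (adjusted p = 3.44e-05) but not the 18-library fit (adjusted p = 0.222). CYFIP2, a regulator of actin assembly, had a line difference of -0.76 ± 0.22 SE (adjusted p = 0.139). It went from 285 and 262 to 353 and 322 CPM in CHL1 and from 12.1 and 11.7 to 23.8 and 26.3 CPM in A375. MDM2, the ubiquitin ligase that degrades p53, went from 129 and 115 to 118 and 115 CPM in CHL1 and from 142 and 156 to 209 and 217 CPM in A375. PTCHD4 was at 0.414 and 0.461 CPM in the CHL1 controls and at 0.187 and 0.108 CPM with CDK4/6i, so its line difference of -2.42 ± 0.51 SE (adjusted p = 0.0326) rests on few reads in CHL1. In A375 it went from 29.0 and 25.8 to 47.8 and 52.7 CPM.

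Genes of the extracellular matrix were examined as proteases, collagens, and integrins and laminins, and as over all genes (8.25% against 2.17%) more of them rose in A375 than in CHL1. The fibroblast marker panel summed to 16.7 to 17.0 CPM in the A375 controls and 17.2 to 20.0 CPM with CDK4/6i, and the keratinocyte panel to 15.8 to 19.4 and 26.2 to 29.0 CPM. In CHL1 the fibroblast panel summed to 12.8 to 16 CPM in the controls and 23 to 23.1 CPM with CDK4/6i. The keratinocyte panel there summed to 7.41 to 7.87 and 7.5 to 8.27 CPM. The fibroblast panel itself includes the collagen genes COL1A1 and COL3A1. The part of the panels in the matrix values was not tested. Among 27 matrix proteases and their inhibitors, 9 rose in A375 and 1 in CHL1, and none fell. Over the 21 with no group at the floor, the medians were 0.60 and 0.27. The line difference passed for 0 genes in the 18-library fit of edgeR (7 of 27 at an unadjusted p below 0.05, against 10% of all genes), for 3 with DESeq2 (against 2.25% of genes) and for 6 in the 8-library fit, all negative. MMP15, a membrane-bound metalloprotease, went from 105 and 99.3 to 145 and 130 CPM in CHL1 and from 4.87 and 4.89 to 20.9 and 19.1 CPM in A375 (line difference -1.61 ± 0.38 SE, adjusted p = 0.0632 in the 18-library fit and 6.85e-06 in the 8-library fit). PLAT, the tissue plasminogen activator, had log2 fold changes of 0.14 in CHL1 and 1.66 in A375 (adjusted p = 0.0934 and 3.27e-05 in the same order of fits).

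**Figure D3:**
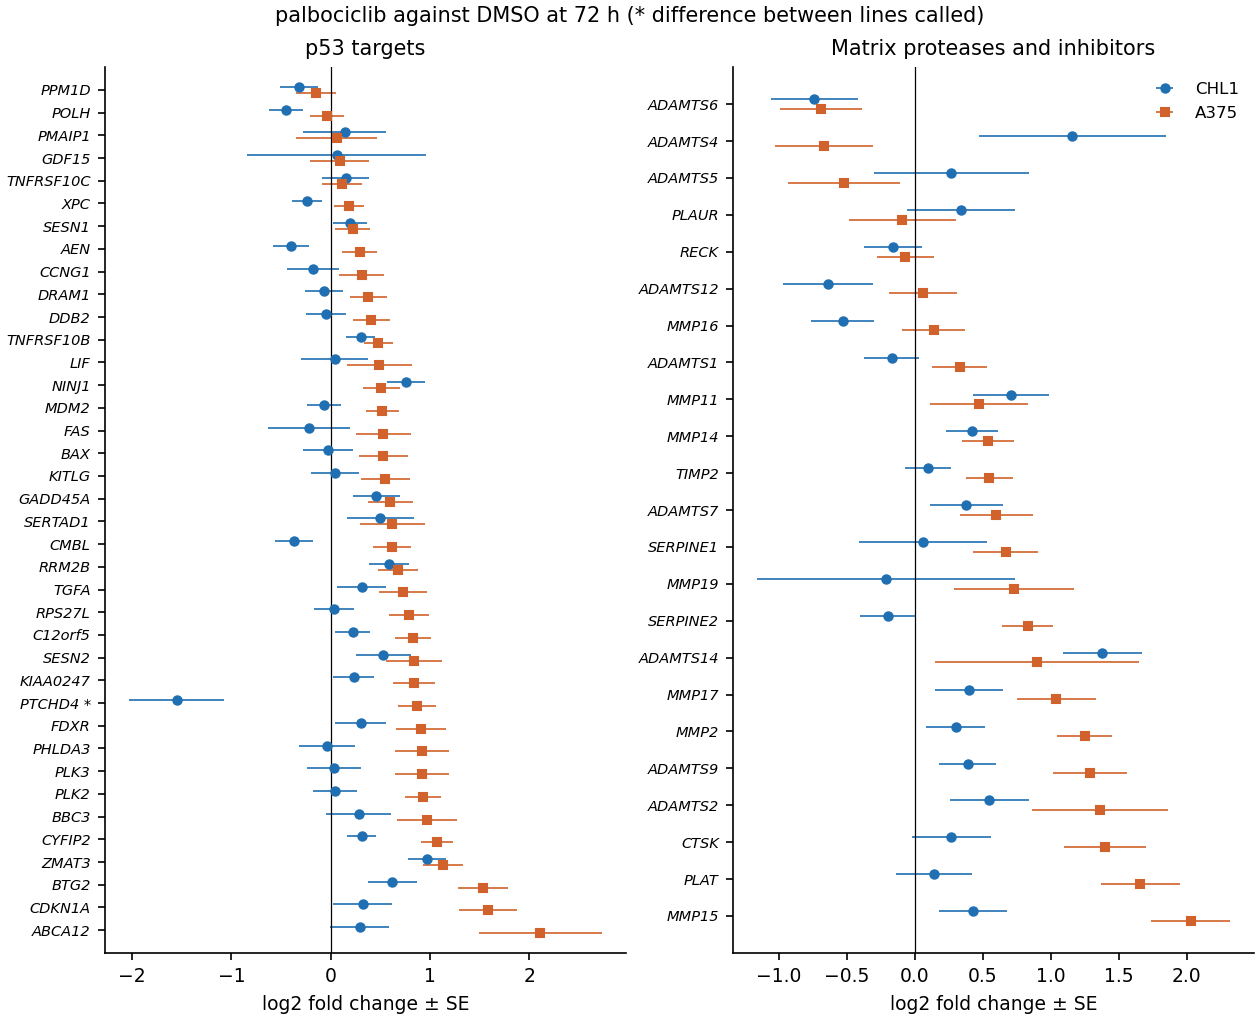
Log2 fold change of CDK4/6i against DMSO with its standard error in CHL1 (blue circles) and A375 (orange squares) for p53 targets (left) and matrix proteases and inhibitors (right), ordered by the change in A375. Genes at the floor in both groups of a line are left out, and the star marks PTCHD4, whose line difference passed the test. Most A375 points lie to the right of the CHL1 points.

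Of 37 collagen genes, 11 rose and 2 fell in A375, and 1 rose and 1 fell in CHL1. COL17A1, a transmembrane collagen of epithelial attachment, went from 1.55 and 1.67 to 1.23 and 1.01 CPM in CHL1 and from 7.05 and 6.40 to 20.4 and 22.6 CPM in A375 (line difference -2.20 ± 0.44 SE, adjusted p = 0.025). COL6A2 moved the other way, from 52.7 and 55.3 to 75 and 70.4 CPM in CHL1 and from 138 and 115 to 80.2 and 68.3 CPM in A375, with a line difference of 1.20 ± 0.28 SE (adjusted p = 0.0551). With 8 libraries 3 collagens differed positively and 8 negatively (29.7% of the list, against 8.68% of all genes).

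FN1, which encodes fibronectin, stayed between 21.2 and 23.0 CPM in the 4 CHL1 libraries and went from 305 and 318 to 832 and 1020 CPM in A375 (line difference -1.67 ± 0.33 SE, adjusted p = 0.0251). TGFBR2, a receptor of transforming growth factor beta, went from 21.3 and 19.8 to 16.6 and 17.2 CPM in CHL1 and from 167 and 185 to 296 and 280 CPM in A375 (line difference -0.99 ± 0.22 SE, adjusted p = 0.0476). These were the members with a line difference among 31 genes of the dedifferentiated and invasive melanoma state, of which 6 rose and 2 fell in A375 and 2 rose and 1 fell in CHL1. With 8 libraries 2 of them differed positively and 7 negatively (29% of the list, against 8.68% of all genes).

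Among 35 integrins and laminins, 6 rose and 1 fell in A375, and 2 rose and 1 fell in CHL1. ITGA3, an integrin subunit that binds laminins, was the member with a line difference, and it rose more in CHL1. It went from 1.80 and 1.70 to 5.38 and 5.97 CPM in CHL1 and from 800 and 793 to 1086 and 1009 CPM in A375 (line difference 1.30 ± 0.26 SE, adjusted p = 0.0276). The A375 level exceeded the CHL1 level many times over in both conditions. In the 8-library fit 2 members differed positively and 9 negatively (31.4% of the list, against 8.68% of all genes).

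Genes of antigen presentation by MHC class II rose in A375, and most had few or no reads in CHL1. Of 18 measured genes, 10 rose in A375 and none changed in CHL1, where 7 were at the floor in both groups. The line difference passed as negative for 3 genes and as positive for 0 in the 8-library fit (16.7% of the list, against 8.68% of all genes). The 3 measured leukocyte markers summed to 2.12 to 2.83 CPM in the A375 controls and 8.76 to 9.19 CPM with CDK4/6i, and to 7.76 to 8.25 and 9.71 to 12.6 CPM in CHL1, and their part in the class II values was not tested. CD74, the invariant chain that guides class II molecules through the cell, was at 0.933 and 0.851 CPM in the CHL1 controls and at 0.411 and 0.683 CPM with CDK4/6i. In A375 CD74 went from 61.6 and 76.1 to 225 and 297 CPM (log2 fold change 1.92, adjusted p = 2.27e-05). Its line difference was -2.62 ± 0.45 SE (adjusted p = 0.00967). CIITA, the coactivator that switches on these genes, stayed between 0.674 and 0.933 CPM in CHL1 and went from 15.3 and 15.8 to 45.5 and 57.8 CPM in A375 (adjusted p of the line difference 0.166, and 0.018 in the 8-library fit).

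HLA-DRA, the alpha chain of HLA-DR, had no read in any CHL1 library and went from 11.2 and 14.7 to 66.6 and 92.5 CPM in A375 (log2 fold change 2.62, adjusted p = 2.15e-05). No line difference can be given for a gene with no reads in one line. HLA-DRB1 and HLA-DRB5 are near-identical copies, and their counts are uncertain. CCAAT boxes are a known part of class II promoters, and CCAAT or its complement was found in 11 of 12 matched promoters of the list (91.7%) and in 33.4% of all promoters. The word was not particular to this list. It was also in 25 of 33 mitosis promoters (75.8%), 20 of 34 of the E2F list (58.8%) and 8 of 18 of the p53 list (44.4%). The letters CCAAT, here in the direct orientation, are shown in capitals for CD74, the list's member with a line difference, over the 170 bases before its start site (chr5:150412911-150413080, minus strand, GRCh38.p14).
CD74: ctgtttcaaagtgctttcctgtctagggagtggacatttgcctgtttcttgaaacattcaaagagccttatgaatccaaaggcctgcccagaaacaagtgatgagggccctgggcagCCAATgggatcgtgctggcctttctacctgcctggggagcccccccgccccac

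In the list of class I presentation, of 19 genes, 6 rose in A375 and 3 in CHL1, the medians were 0.31 and 0.21, and the line difference passed in the 18-library fit for 0 genes with edgeR (1 of 19 at an unadjusted p below 0.05, against 10% of all genes) and 0 with DESeq2. HLA-B alone passed in the 8-library fit, with a negative difference. HLA-B, a class I heavy chain, rose in both lines, from 12.9 and 10.1 to 22.9 and 19.5 CPM in CHL1 and from 14.1 and 14.4 to 42.2 and 42.2 CPM in A375 (line difference -0.68 ± 0.32 SE, adjusted p = 0.48 in the 18-library fit and 0.0378 in the 8-library fit). Of 50 interferon-stimulated genes, 10 rose in A375 and 2 in CHL1, with medians of 0.30 and 0.27 over the 48 with no group at the floor. No interferon gene had a positive line difference in the 8-library fit and 6 had a negative one (12% of the list, near the 8.68% of all genes). In the 18-library fit of edgeR 0 passed, and 6 of 50 had an unadjusted p below 0.05, near the 10% of all genes.

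Lysosome and autophagy genes rose in both lines, 23 of 44 in A375 (1 fell) and 8 of 44 in CHL1 (0 fell), with medians of 0.64 and 0.39. The line difference passed for 0 genes in the 18-library fit of edgeR (5 of 44 at an unadjusted p below 0.05, near the 10% of all genes) and 0 with DESeq2. With 8 libraries 1 positive and 5 negative passed (13.6% of the list, against 8.68% of all genes). NEU1, a lysosomal sialidase, went from 66.7 and 58.0 to 106 and 97.9 CPM in CHL1 and from 13.6 and 17.5 to 47.8 and 43.3 CPM in A375 (line difference -0.84 ± 0.32 SE, adjusted p = 0.32). Its A375 libraries lay below those of CHL1 in both conditions.

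A smaller group of genes passed the test in both lines in opposite directions. By sign alone, without a threshold in each line, 91 of the 133 genes with a line difference had opposite log2 fold changes. Of the 12 genes called in both lines with opposite signs and a line difference, 9 rose in A375 and fell in CHL1, and 3 fell in A375 and rose in CHL1. GJB1, a connexin of gap junctions, went from 29.9 and 26.3 down to 16.5 and 13.8 CPM in CHL1 and from 0.579 and 0.586 up to 4.65 and 4.65 CPM in A375. Its line difference was -3.88 ± 0.40 SE (adjusted p = 0.000137), and it was called in each of the 8 fits that left out 1 library. VCAN, which encodes the matrix proteoglycan versican, went from 11.2 and 12.3 to 3.73 and 3.63 CPM in CHL1 and from 8.06 and 5.52 to 16.8 and 18.2 CPM in A375 (line difference -3.04 ± 0.45 SE, adjusted p = 0.00277). VCAN was higher in CHL1 than in A375 in the controls and lower in CHL1 with CDK4/6i.

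PPAPDC1A, a phospholipid phosphatase, went from 16.5 and 17.8 to 8.74 and 7.41 CPM in CHL1 and from 2.94 and 3.08 to 11.6 and 11.5 CPM in A375 (line difference -3.03 ± 0.30 SE, adjusted p = 0.000137). FLRT2, an adhesion protein of the FGF receptor and guidance pathways, went from 31.9 and 37.3 to 12.8 and 13.2 CPM in CHL1 and from 12.2 and 10.2 to 15.4 and 20.5 CPM in A375 (line difference -2.09 ± 0.31 SE, adjusted p = 0.00277). The order of the lines for PPAPDC1A and FLRT2 thus changed with treatment. FAM78B, SLC35F1, the cytoskeletal gene SHROOM4 and PODXL, which encodes the sialomucin podocalyxin, had line differences of -2.25, -2.19, -1.85 and -1.20. Their log2 fold changes were -1.02, -0.96, -0.87 and -0.66 in CHL1 and 1.23, 1.23, 0.98 and 0.54 in A375.

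LINC01151, a long non-coding RNA, fell from 432 and 503 to 200 and 172 CPM in CHL1. In A375 its controls held at most 1 read each, and its CDK4/6i libraries held 5 and 7, too few to give a fold. In the other direction, CIB2, a calcium-binding partner of integrins, rose from 53.7 and 43.7 to 130 and 106 CPM in CHL1 and fell from 1.69 and 1.17 to 0.634 and 0.601 CPM in A375 (line difference 2.49 ± 0.45 SE, adjusted p = 0.0126). ANKRD18B rose from 65.3 and 74.9 to 110 and 145 CPM in CHL1 and fell from 27.7 and 27.4 to 16.2 and 18.5 CPM in A375 (line difference 1.53 ± 0.27 SE, adjusted p = 0.012). The remaining gene of the 12, AC005077.12, carries a clone name and lay outside the rule for named genes.

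**Figure D4:**
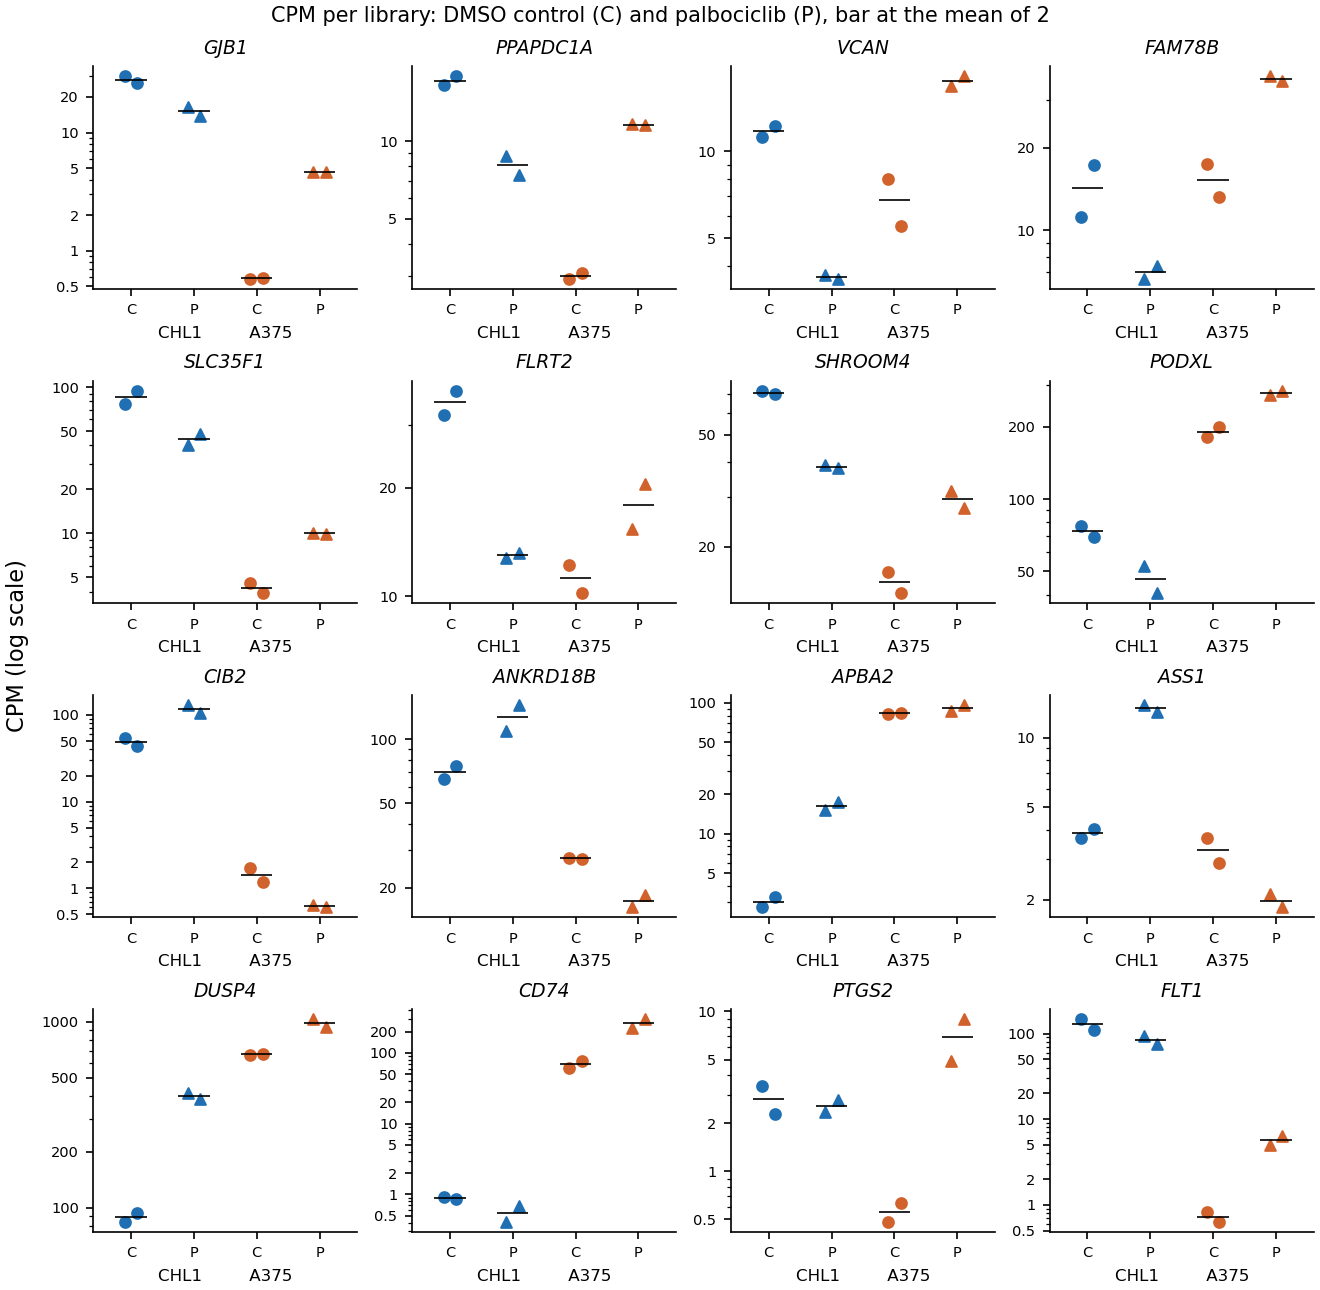
CPM on a log axis in each of the 8 libraries, with blue for CHL1, orange for A375, circles for DMSO controls (C), triangles for CDK4/6i (P) and bars at the mean of 2 libraries. The first 8 panels show genes that fell in CHL1 and rose in A375, CIB2 and ANKRD18B moved the other way, and the last 6 panels show genes called in 1 line, such as APBA2 in CHL1 and FLT1 in A375.

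Among genes that rose in CHL1 and had no call in A375, APBA2, a neuronal adaptor protein, went from 2.73 and 3.30 to 15.1 and 17.4 CPM in CHL1 and from 82.5 and 84.3 to 87.4 and 96.3 CPM in A375. This gave a line difference of 2.29 ± 0.37 SE (adjusted p = 0.0057). ASS1, argininosuccinate synthase of arginine synthesis, went from 3.70 and 4.01 to 13.8 and 12.9 CPM in CHL1 and from 3.67 and 2.88 to 2.11 and 1.85 CPM in A375 (line difference 2.52 ± 0.39 SE, adjusted p = 0.00408). The control levels of ASS1 were alike, and the 2 CHL1 CDK4/6i libraries stood above all others. SOCS2, a suppressor of cytokine signalling, went from 0.656 and 0.780 to 3.29 and 2.88 CPM in CHL1 and from 5.98 and 8.65 to 5.65 and 5.86 CPM in A375 (line difference 2.44 ± 0.43 SE, adjusted p = 0.0112). PTCHD2 rose from 9.46 and 7.76 to 35.4 and 23.1 CPM in CHL1. In A375 its controls held 5 and 7 reads and its CDK4/6i libraries at most 1 each, too few to give a fold.

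Feedback phosphatases of the MAPK pathway were part of this group. DUSP4, which dephosphorylates ERK in the nucleus, went from 84.1 and 93.2 to 413 and 385 CPM in CHL1 (log2 fold change 2.17, adjusted p = 8.53e-05) and from 661 and 673 to 1029 and 940 CPM in A375 (log2 fold change 0.56, adjusted p = 0.0973). Its line difference was 1.61 ± 0.32 SE (adjusted p = 0.0223). DUSP5, another nuclear ERK phosphatase, went from 20.9 and 18.4 to 48.4 and 40.5 CPM in CHL1 and from 58.5 and 64.8 to 61.7 and 65.2 CPM in A375 (line difference 1.14 ± 0.25 SE, adjusted p = 0.0404). For both genes the A375 libraries lay above the CHL1 libraries of the same treatment. The other 26 genes of the MAPK output list had no line difference in the 18-library fit. Of the 28, 4 rose in CHL1 and 3 in A375, and none fell, while 2.17% and 8.25% of all genes rose. With 8 libraries 4 differed positively and 1 negatively (17.9% of the list, against 8.68% of all genes). CCND1, the cyclin partner of CDK4 and CDK6, rose in both lines, from 311 and 328 to 816 and 799 CPM in CHL1 and from 373 and 388 to 726 and 748 CPM in A375 (line difference 0.38 ± 0.24 SE, adjusted p = 0.665).

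NRG3, a neuregulin that binds ERBB4, fell in CHL1 from 17.0 and 19.5 to 2.58 and 3.52 CPM and was at 11.0 and 7.87 CPM in the A375 controls and at 8.45 and 8.41 CPM with CDK4/6i. Its line difference was -2.42 ± 0.48 SE (adjusted p = 0.0229). SLC13A5, a citrate transporter, had log2 fold changes of -2.06 in CHL1, where it fell, and 2.64 in A375 (adjusted p = 0.0528). It went in CHL1 from 4.66 and 6.95 to 1.38 and 1.40 CPM and was at 0.145 and 0.244 CPM in the A375 controls and at 1.48 and 1.00 CPM with CDK4/6i. The line difference of SLC13A5, -4.70 ± 1.05 SE (adjusted p = 0.0476), rests on few reads in A375. Of the 17 EGF ligands and ERBB receptors, NRG3 was the member with a line difference. In the 8-library fit 1 member differed positively and 2 negatively (17.6% of the list, against 8.68% of all genes).

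Among the genes that rose in A375 with no call in CHL1, PTGS2, the inducible cyclooxygenase, was at 3.42, 2.27, 2.35 and 2.80 CPM in the CHL1 libraries and went from 0.483 and 0.635 to 4.91 and 8.91 CPM in A375 (line difference -3.76 ± 0.54 SE, adjusted p = 0.00237). FLT1, a receptor of vascular endothelial growth factor, went from 146 and 110 to 93.8 and 74.8 CPM in CHL1 and from 0.820 and 0.635 to 4.97 and 6.41 CPM in A375 (line difference -3.56 ± 0.39 SE, adjusted p = 0.00025). FLT1 stayed far higher in CHL1 than in A375 in both conditions. OTOGL went from 1.25 and 1.03 to 7.4 and 7.41 CPM in A375 and lay between 46.2 and 59.9 CPM in CHL1 (line difference -2.86 ± 0.36 SE, adjusted p = 0.000554). PLEKHA7, a protein of adherens junctions, went from 14.7 and 18.5 to 6.23 and 8.56 CPM in CHL1 and from 12.8 and 11.2 to 35.8 and 43.3 CPM in A375 (line difference -2.89 ± 0.47 SE, adjusted p = 0.0057). HHIPL2 and CYP1B1, a cytochrome P450, had line differences of -2.88 ± 0.62 SE (adjusted p = 0.0404) and -2.56 ± 0.54 SE (adjusted p = 0.0362) and stayed at or under 8.56 CPM in every library.

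Among the genes that fell in A375 with no call in CHL1, MARCH3, a membrane-bound ubiquitin ligase, went from 83.8 and 104 to 74.1 and 78.6 CPM in CHL1 and from 15.5 and 15.5 to 2.06 and 3.25 CPM in A375 (line difference 2.24 ± 0.29 SE, adjusted p = 0.000826). INSIG1, which holds the sterol-sensing SREBP complex in the endoplasmic reticulum, stayed between 51.6 and 54.1 CPM in CHL1 and went from 72.4 and 77.9 to 31.9 and 22.4 CPM in A375 (line difference 1.49 ± 0.28 SE, adjusted p = 0.0168). It was the member with a line difference among 35 genes of cholesterol and fatty acid synthesis, of which 4 fell in A375 and 2 rose and 1 fell in CHL1. SCD, the stearoyl-CoA desaturase, had log2 fold changes of -0.07 in CHL1 and -0.87 in A375 (adjusted p of the line difference 0.237). In the 8-library fit 7 members of the list differed positively and 1 negatively (22.9% of the list, against 8.68% of all genes).

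ADM2, a peptide hormone gene, was at 13.5 and 13.9 CPM in the CHL1 controls and at 24.9 and 25.9 CPM with CDK4/6i, and it went from 2.22 and 2.15 to 0.845 and 0.4 CPM in A375 (line difference 2.70 ± 0.55 SE, adjusted p = 0.028). XKR5, ANKRD30B and the non-coding RNA LINC01037 had line differences of 2.27, 2.18 and 2.61, and LINC01037 was at or under 0.503 CPM in CHL1. With limma voom in place of edgeR, the calls of PTCHD2, LINC01037, SLC13A5, HHIPL2, CD74, CYP1B1, EZH2, PTCHD4, TGFBR2 and ITGA3 were lost, and TGFBR2 was also lost with size factors of the DESeq2 type.

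Amino acid stress genes under ATF4 moved apart by smaller amounts. Of 37 genes, 3 rose in CHL1 with none falling, and 1 rose and 4 fell in A375. Over the 36 with no group at the floor the medians were 0.19 and -0.06, and the line difference was positive for 29. In the 18-library fit of edgeR 0 members passed (7 of 37 at an unadjusted p below 0.05, against 10% of all genes), 3 passed with DESeq2 and 9 in the 8-library fit, all positive. ASNS, asparagine synthetase, went from 80.9 and 89.7 to 87.9 and 107 CPM in CHL1 and from 46.9 and 61.6 to 25.1 and 29.0 CPM in A375 (line difference 1.19 ± 0.33 SE, adjusted p = 0.117). CHAC1, which breaks down glutathione, went from 2.62 and 3.01 to 8.70 and 11.7 CPM in CHL1 and lay between 3.75 and 4.33 CPM in A375 (line difference 1.90 ± 0.58 SE, adjusted p = 0.169).

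The drug targets themselves differed little in response. CDK4 had log2 fold changes of -0.04 in CHL1 and 0.05 in A375 (line difference -0.09 ± 0.30 SE), and CDK6 of -0.13 and -0.11 (line difference -0.02 ± 0.24 SE). CDK6 stood at 11.8 and 9.79 CPM in the CHL1 controls and at 562 and 604 CPM in those of A375. RB1 had a line difference of 0.53 ± 0.34 SE (adjusted p = 0.681, and 0.0316 in the 8-library fit). PRMT5 and its partner WDR77 had line differences of -0.05 ± 0.33 SE and -0.48 ± 0.25 SE. MDM4, a p53 inhibitor whose splicing is known to depend on PRMT5, fell in A375 by a log2 of 0.77. The line difference of MDM4 was 0.50 ± 0.28 SE (adjusted p = 0.611, and 0.0404 in the 8-library fit). A p that misses the threshold does not show that the lines responded alike. EGF rose in CHL1 (log2 fold change 1.00, adjusted p = 0.0365) and its change in A375 was 0.28 (adjusted p = 0.499).

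In the remaining lists the 18-library test of the line difference passed for PTGS2 alone, a target of NF-kB described above. Cytosolic ribosomal proteins had medians of 0.09 in CHL1 and 0.36 in A375 and a negative line difference for 67 of 70 genes, yet 2 rose in A375, none in CHL1, and 1 differed in the 8-library fit. Oxidative phosphorylation genes had medians of 0.08 and 0.31, with a negative line difference for 42 of 46 genes, of which 1 passed in the 8-library fit. With a block for replicate number added to that fit, 13 ribosomal and 11 oxidative phosphorylation genes differed, all negative. That fit called 3268 of all 20705 genes. GC content moved with treatment in the same libraries: GC-rich genes relative to GC-poor genes stood at a log2 of -0.20 and -0.24 in the A375 controls and at 0.16 and 0.24 with CDK4/6i, and at -0.07, -0.10, 0.23 and -0.01 in CHL1. The part of GC content in these shifts was not tested. After GC correction the median line difference was -0.16 for ribosomal proteins, against -0.25 without it. Melanocyte lineage genes, NF-kB targets, cytokines, YAP/TAZ targets, NRF2 targets, glycolysis, the BCL2 family, splicing factors, nucleolar genes, neural crest guidance genes and the CDK4/6-RB pathway had medians between -0.38 and 0.30 in both lines over members with no group at the floor. In the 8-library fit their shares of members with a line difference ran from 2.86% (nucleolar genes) to 32.4%, against 8.68% of all genes. The highest were neural crest guidance genes (4 positive and 7 negative of 34) and the CDK4/6-RB pathway (6 positive and 1 negative of 22, 31.8%). Among these lists only nucleolar genes and splicing factors (7.89%) lay below the share of all genes.

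Some list members were called in a line without a line difference in the 18-library fit. BCL2, which blocks apoptosis, went from 279 and 364 to 204 and 252 CPM in CHL1 and from 29.3 and 27.4 to 7.45 and 9.76 CPM in A375, where it fell (line difference 1.22 ± 0.30 SE, adjusted p = 0.0765). FTH1, the heavy chain of ferritin and a target of NRF2, lay between 9.06 and 15 CPM in CHL1 and rose from 27.7 and 28.5 to 68.6 and 66.6 CPM in A375 (line difference -1.64 ± 0.47 SE, adjusted p = 0.139). SLC2A1, the glucose transporter GLUT1, rose from 127 and 138 to 366 and 378 CPM in CHL1 and went from 242 and 269 to 329 and 341 CPM in A375 (line difference 1.10 ± 0.39 SE, adjusted p = 0.271). DDX58, which encodes the RNA sensor RIG-I, rose from 10.8 and 9.38 to 22.3 and 19.0 CPM in A375 and lay between 14.2 and 16.3 CPM in CHL1 (line difference -0.90 ± 0.28 SE, adjusted p = 0.17). RBL1, a relative of RB1, fell from 125 and 120 to 66.9 and 71.7 CPM in CHL1 and from 93.3 and 93.3 to 31.6 and 32.4 CPM in A375 (line difference 0.73 ± 0.23 SE, adjusted p = 0.191). In the 8-library fit the line differences of these 5 genes all passed, with adjusted p between 3.44e-05 and 0.00789.

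**Figure D5:**
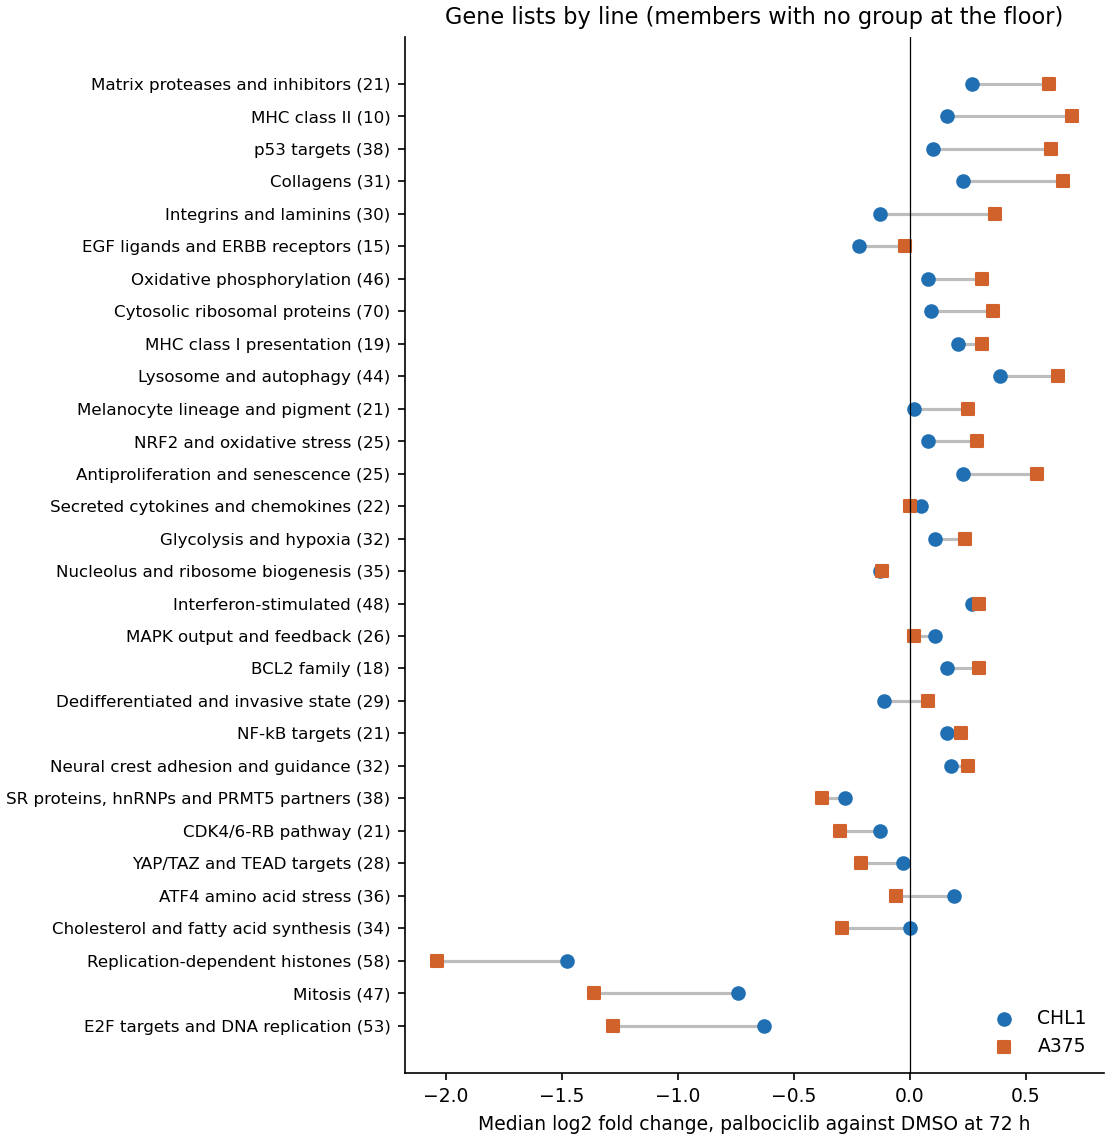
Median log2 fold change of CDK4/6i against DMSO in CHL1 (blue circles) and A375 (orange squares) for each gene list, ordered by the median line difference, with the number of members that had no group at the floor in brackets. Matrix proteases, MHC class II genes, p53 targets and collagens stand higher in A375 than in CHL1, and histones, mitosis genes and E2F targets stand lower in A375.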

How the data were processed

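Per the study's methods, poly-A libraries were sequenced as read pairs on an Illumina NextSeq instrument, and the authors aligned reads to GRCh37 with HISAT2 and counted them per gene with HTSeq. The submitters' processing notes name HISAT2 2.0.4, HTSeq 0.11.2, SAMtools 1.18 and edgeR. The deposited values are labelled as normalised, but they are whole numbers with unequal totals per library and were treated as raw counts per gene. The methods give HTSeq's default settings, which assign reads by strand. Whether the kit marked strand is not given in the sources used here, so overlapping and antisense genes may not be separated.

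Counts were analysed with edgeR 4.0.16 (quasi-likelihood test, TMM normalization, 9 group means over all 18 libraries, no filter, prior count 0.125) in R 4.3.3, and Benjamini-Hochberg adjustment ran over 20705 genes. The line difference was the contrast of both responses, with p-values two-sided. CPM used TMM-adjusted library sizes. Alternatives used DESeq2 1.42.0, limma 3.58.1 (voom), RLE size factors, a filter of 1 CPM, a fit of 8 libraries, GC correction (its restriction to genes of at least 1 CPM was chosen after seeing the data) and leaving out libraries. The fit was tested on simulated counts, with 200 genes changed in the CHL1 CDK4/6i group only. The line difference passed for 19 of 100 genes changed by a log2 of 1 and for 85 of 100 changed by a log2 of 2. It also passed for 6 unchanged genes, and for 0 genes where no change was simulated. Replicate libraries differed by more than sampling noise, so none was treated as a repeat deposit of another, which does not show that they were separate cultures.

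Genes were named by a rule over adjusted p and size of the line difference within each class (averaging 2 CPM or more, clone names left out) and, within each list, by the smallest p. The rule by size also required every treated minus control difference of log2 CPM in one line to lie beyond all those of the other. All 133 genes with a line difference met that condition, so it is no added support. A few genes are not reported here. PCNA, CCNE1, E2F7, CCNB1, MDM2 and HLA-DRA fall outside this rule and were chosen after their values were seen. CENPA was named by the promoter rule (smallest p of the line difference among members with the word). Members and lists were chosen with earlier results of these data known. Promoter sequences came from RefSeq (GRCh38.p14), matched by symbol or synonym.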

Additional observations from a re-analysis of the deposited data

Results flagged for a closer look

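The results below are singled out because the response to CDK4/6i differed between CHL1 and A375 by the test of the difference itself, which held for 133 genes in all. Values are line differences (CHL1 log2 fold change minus A375 log2 fold change) from edgeR at an adjusted p below 0.05.

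Genes of replication, chromatin and the nuclear envelope that fell more in A375 had positive line differences: 2.19 for FAM111B, 1.88 for CHAF1B, 1.68 for LMNB1, 1.60 for POLE2, 1.40 for WDR76, 1.26 for BARD1, 1.23 for BRCA2, 1.20 for MND1, 1.16 for MCM6, 1.12 for DTL and 0.92 for EZH2. Other falls in A375 gave 2.70 for ADM2, 2.61 for LINC01037, 2.27 for XKR5, 2.24 for MARCH3, 2.18 for ANKRD30B and 1.49 for INSIG1.

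Rises in CHL1 gave 2.52 for ASS1, 2.44 for SOCS2, 2.29 for APBA2, 1.61 for DUSP4, 1.30 for ITGA3 and 1.14 for DUSP5, and rises in CHL1 with falls in A375 gave 2.49 for CIB2 and 1.53 for ANKRD18B. The fall of NRG3 in CHL1 gave -2.42. SLC13A5, at -4.70, had log2 fold changes of -2.06 in CHL1 and 2.64 in A375.

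Genes that fell in CHL1 and rose in A375 had line differences of -3.88 for GJB1, -3.04 for VCAN, -3.03 for PPAPDC1A, -2.25 for FAM78B, -2.19 for SLC35F1, -2.09 for FLRT2, -1.85 for SHROOM4 and -1.20 for PODXL. Genes that passed as rises in A375 and had no call in CHL1 gave -3.76 for PTGS2, -3.56 for FLT1, -2.89 for PLEKHA7, -2.88 for HHIPL2, -2.86 for OTOGL, -2.62 for CD74, -2.56 for CYP1B1, -2.20 for COL17A1, -1.67 for FN1 and -0.99 for TGFBR2. PTCHD4, at -2.42, had log2 fold changes of 0.87 in A375 and, on few reads, -1.55 in CHL1.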

How the results depend on the processing

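Counts of DEGs depended most on the libraries fitted. With only the 8 libraries, 1797 genes differed between the lines, 4722 changed in CHL1 and 7239 in A375, and with a replicate block added these were 3268, 6614 and 8745. Deviations of libraries with the same number correlated at 0.447 in CHL1 and 0.226 in A375, and the labels do not say what a number shares. DESeq2 gave 358 line differences and 1479 CHL1 DEGs. GC correction gave 524 and 2258. With the 8 libraries it gave 1752, 4491 and 6200, and the same genes uncorrected gave 1842, 4476 and 6441. Requiring an absolute log2 fold change of 1 left 481 CHL1 and 1635 A375 DEGs. Leaving out each library gave 30 to 46 line differences, 132 to 826 CHL1 DEGs and 1231 to 2744 A375 DEGs. Fewer samples were fitted there, and the cause of the other shifts was not tested. For the 49 genes with a line difference that the naming rule chose, no direction reversed: 378 of 390 values under 8 other settings kept the call, and 142 of 392 with a library left out. At this number of libraries, small line differences may not be detectable.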
